A study of Mus musculus with 6 samples.

Results

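MYC, its target AP4 and 33 genes of ribosome production and cell growth were followed in mouse germinal centre B cells that did or did not carry a DAF-TM transgene. The members were chosen as a list of 35 gene symbols, and every row of the count table with one of those symbols was taken, whatever its value. All 35 were among the 23412 rows, and all 35 passed the filter on low counts that left 18767 genes to test. None was called changed between the groups, and the data below show how closely each was measured and how the libraries differed within a group.

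MYC is a transcription factor that binds DNA as a pair with MAX, typically at the sequence CACGTG, called an E-box. It raises transcription by RNA polymerase I, the assembly of both ribosomal subunits in the nucleolus, and the supply of polyamines and nucleotides. In the germinal centre, the site in lymphoid tissue where B cells mutate and select their antibody genes, MYC is switched on briefly in B cells of the light zone that receive help from T cells, and AP4 (gene Tfap4) prolongs the growth programme after MYC has declined.

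The control cells came from Cg1-cre(+/-) mice. The other cells came from mice that carried Cg1-cre(+/-) and, in addition, R26-DAF-TM(fl/fl), a DAF-TM cassette at Rosa26 that Cre releases. The labels are not uniform, since a protocol text writes the genotypes as DAF-Tg(+/+) for controls and DAF-Tg(fl/fl), and a table header writes the Cre allele as +/fl. DAF is the complement regulator encoded in mice by Cd55. All mice received sheep red blood cells into the peritoneum, and B220+ splenic cells with GL7 and Fas (CD95) at their surface were sorted on day 10. Cre from the Cg1 locus acts in B cells that transcribe that constant region, and the labels do not give the share of sorted cells that had recombined, the age of the mice or whether mice were pooled. Each group had 3 labelled replicates, but DAF-TM replicates 2 and 3 had identical columns. Their difference, 0 in all rows, was below sampling noise, and the pair entered as 1 sample, here DAF-TM library 2. The comparison thus had 3 control and 2 DAF-TM libraries, and its p-values measure the spread between libraries, which may in part be technical.

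Total counts ran from 7257339 to 12783965. Cd55 stood at 23.5 to 34.4 CPM (counts scaled to the library size) in the controls and at 713 and 726 in the DAF-TM libraries. Female Xist and Y-linked transcripts did not follow the groups, and DAF-TM library 1 held both, with Xist at 297 CPM and 4 Y-linked genes summing to 284 CPM. Bcl6, the germinal centre regulator, was at 278 to 313 CPM in controls and at 214 and 239 in DAF-TM libraries. Because these were bulk samples, fewer cells of a type and less RNA per cell cannot be told apart.

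The E-box was looked for in the promoters first, since it is the DNA sequence through which MYC and MAX are best known to act. RefSeq promoter windows of build GRCm38.p6, from 250 bases before to 50 bases after each start, were found for 28 of the 35 members and not for Myc, Tfap4, Rrp12, Bop1, Npm1, Srm or Fbl. CACGTG, which reads the same on both strands, was present for 9 of the 28 (32.1%), against 8.09% of 27025 genes and 7.15% of 32851 windows of the same length. The 5 members with the motif outside any annotated exon are shown on the strand of the gene, 5′ to 3′, with the E-box in capitals and 12 bases on each side.
Eif4a1: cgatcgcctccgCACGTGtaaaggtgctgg
Eif5a: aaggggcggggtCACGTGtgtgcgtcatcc
Ran: gctcggccggccCACGTGacccgccgcccc
Phb: ttgaggaataggCACGTGcatatattacca
Nme1: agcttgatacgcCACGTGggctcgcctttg
The stretches lie at chr11:69672595-69672624 (minus strand), chr11:69921443-69921472 (minus), chr5:129020026-129020055 (plus), chr11:95666713-95666742 (plus) and chr11:93968037-93968066 (minus). Their E-boxes begin 189, 74, 118, 232 and 29 bases before the transcription start that their window spans, in the same order. For Eif5a and Nme1 that start is an alternative one, as the stretch lies within the span of the gene. Each has another CACGTG in an annotated exon, 178 and 18 bases before the transcription start of a different window. Mybbp1a, Pes1, Utp20 and Wdr43 carried the motif after the start, within transcribed sequence. The related non-palindromic form CACGCG, or CGCGTG on the other strand, was present for 10 of the 28 members (35.7%) and 10.5% of all genes. A match is a description of these letters and not evidence of binding. The log2 fold changes (DAF-TM minus control) of the 9 members with CACGTG ran from -0.25 to 0.07 with a median of -0.14, and those of the 19 without it from -0.33 to 0.15 with a median of -0.07, so the ranges overlapped.

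No member passed the test between the groups. By edgeR's quasi-likelihood test, adjusted by the Benjamini-Hochberg method over all 18767 genes, 0 of 35 members passed an adjusted p of 0.05, where 77 genes (0.41%) did, and DESeq2 and limma-voom also called 0 members. The members' log2 fold changes ran from -0.33 (Nip7) to 0.34 (Tfap4), their adjusted p-values from 0.86 to 0.999, and the standard errors from 0.17 to 0.43. At an unadjusted p under 0.05 there was 1 member, Nip7, against 5.74% of all genes in either direction and 2.06% lower in DAF-TM. The sum of all 35 was 6280, 7083 and 5883 CPM in control libraries 1 to 3 and 6285 and 5570 in DAF-TM libraries 1 and 2. On this TMM scale DAF-TM library 1 lay inside the control range and DAF-TM library 2 below it. That order depends on the TMM factors, 0.98 and 1.11 in DAF-TM libraries 1 and 2, and the sum without them was not computed.

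The fitted 95% intervals show which sizes of change these libraries leave within reach. For 31 of 35 members the interval lay within a 1.5-fold change in either direction, against 36.1% of all genes tested. All members but Tfap4 had a mean of at least 20 CPM, and the share among genes at that level was not computed. The count therefore does not set the members apart from other genes of like level. The exceptions were Myc, Tfap4, Nip7 and Odc1. The widest bounds over the 35 were 0.633-fold (Nip7) and 2.29-fold (Tfap4). These intervals rest mainly on a spread pooled over genes, since the fit gave the pooled spread a median weight of 1153 degrees of freedom and the gene's own spread 3.

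**Figure D1:**
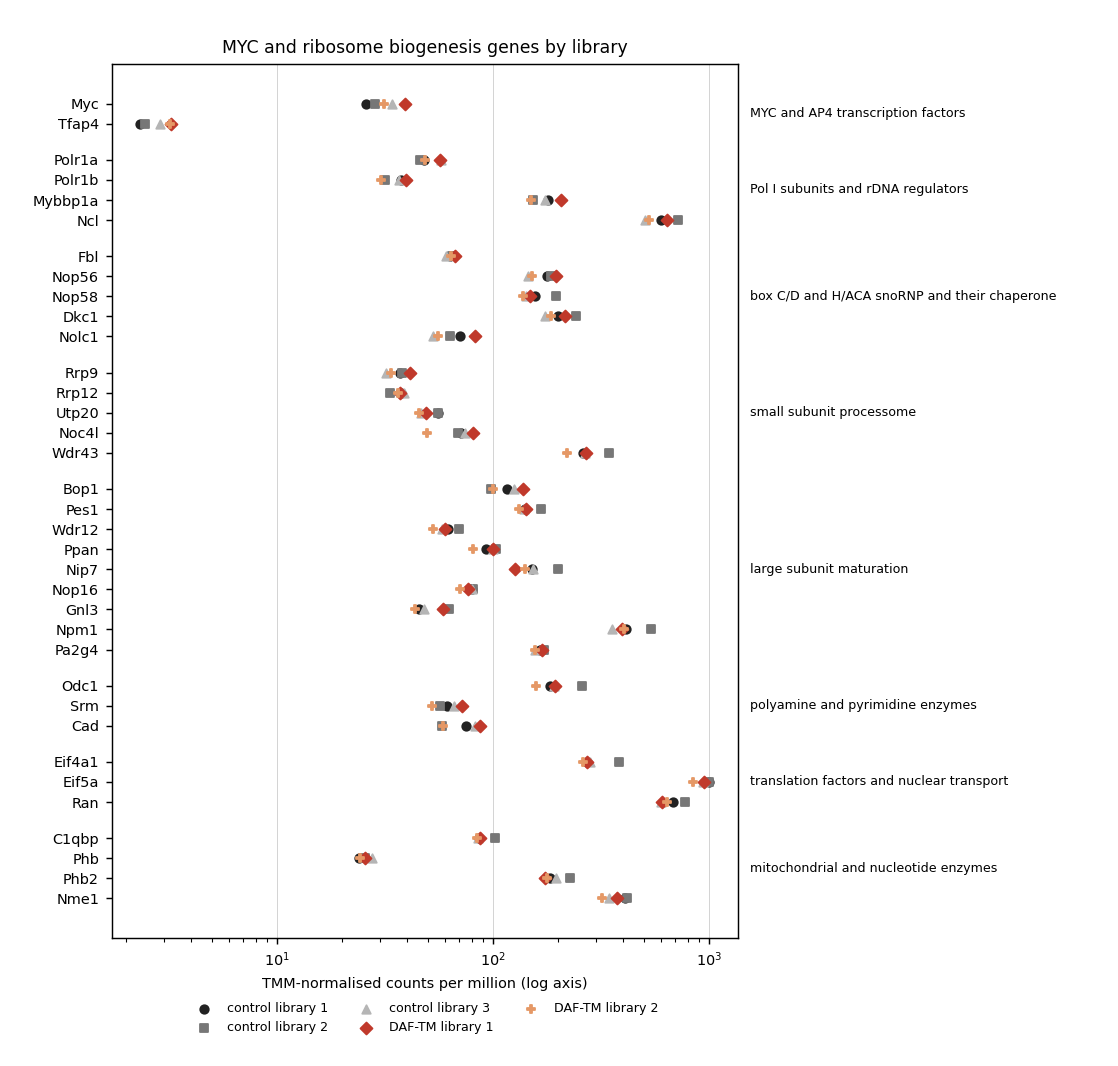
TMM-normalised counts (CPM, log axis) of each of the 35 members in each of the 5 libraries, with 1 symbol per library and members grouped by role. For Tfap4 both DAF-TM symbols lie above all 3 controls, for Nip7, Nop16 and Phb2 both lie below, and the other members overlap.

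**Figure D2:**
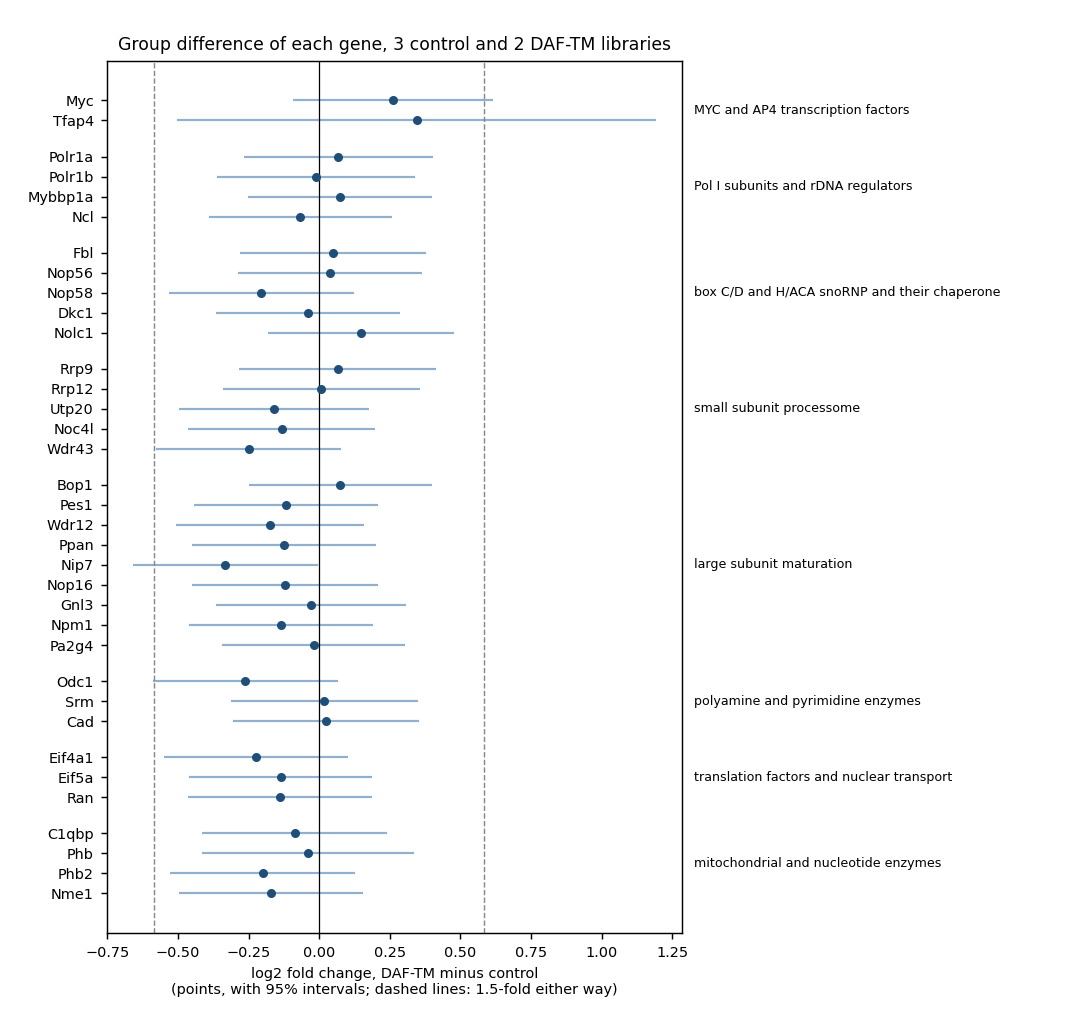
Log2 fold change (DAF-TM minus control) of each member with its 95% interval from edgeR's fit to 3 control and 2 DAF-TM libraries, with dashed lines at a 1.5-fold change. The interval crosses a dashed line for Myc, Tfap4, Nip7 and Odc1.

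Myc and Tfap4 had the largest positive log2 fold changes of the 35, and neither passed the test. Myc (chr15:61985341-61990361, GRCm38) was at 26.0, 28.4 and 34.0 CPM in control libraries 1 to 3 and at 39.1 and 31.2 in DAF-TM libraries 1 and 2. DAF-TM library 1 was the highest of the 5, and DAF-TM library 2 lay between control libraries 2 and 3, so the groups overlapped. The means were 29.4 ± 4.11 (SD, n = 3) and 35.2 ± 5.61 (SD, n = 2), with a log2 fold change of 0.26 (SE 0.18) that did not pass (edgeR adjusted p = 0.945). The interval ran from 0.937-fold to 1.53-fold. With DAF-TM library 1 left out the value was 0.08, and with DAF-TM library 2 left out it was 0.41.

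Tfap4, which encodes AP4, was the least abundant member. It stood at 2.33, 2.46 and 2.86 CPM in the controls and at 3.25 and 3.21 in the DAF-TM libraries, which was 21 to 38 counts per library. It was the 1 member with both DAF-TM libraries above all controls, a pattern shown by 11.3% of all genes tested. Its log2 fold change was 0.34 with SE 0.43 (edgeR adjusted p = 0.955), and its interval ran from 0.705-fold to 2.29-fold, the widest of the list.

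The 4 members that act on ribosomal DNA had a median log2 fold change of 0.03, and none passed the test. Polr1a and Polr1b encode the 2 largest subunits of RNA polymerase I, and their values were 0.07 and -0.01. Ncl encodes nucleolin, an abundant nucleolar protein that binds ribosomal RNA precursors. It ranged from 507 to 721 CPM in the controls and stood at 637 and 527 in the DAF-TM libraries (log2 fold change -0.07). Mybbp1a, a nucleolar MYB-binding protein that also acts on rRNA synthesis, had the lowest p of the role. It was at 180.3, 152.8 and 174.9 CPM in controls and at 206.5 and 149.8 in DAF-TM libraries. Its 2 DAF-TM libraries were thus the highest and the lowest of the 5, and the log2 fold change was 0.07 (edgeR SE 0.17 and adjusted p = 0.976).

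Proteins of the small nucleolar ribonucleoproteins guide the chemical modification of ribosomal RNA. Fbl encodes fibrillarin, the methyltransferase of the box C/D particles, and its levels were the most even of the role, 61.0 to 64.8 CPM in controls and 66.6 and 63.9 in DAF-TM libraries (log2 fold change 0.05). Nop56, another core protein of that particle, had a value of 0.04. Dkc1 encodes dyskerin, the pseudouridine synthase of the box H/ACA particles, with -0.04, and Nolc1, a chaperone of both kinds of particle, had 0.15. Nop58, the partner of Nop56, had the lowest p of the role. It was at 156.3, 195.8 and 141.9 CPM in controls and at 148.2 and 137.7 in DAF-TM libraries. Control library 2 was the highest, and DAF-TM library 1 lay inside the control range (log2 fold change -0.21, edgeR SE 0.17 and adjusted p = 0.947).

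The small subunit is cut and folded out of its precursor by the processome, a large particle in the nucleolus. Rrp9 and Rrp12, processing factors of that subunit, had log2 fold changes of 0.07 and 0.01, and Utp20, a very large scaffold protein of the particle, had -0.16. Wdr43, a processome subunit on chr17:71616178-71659031, had the lowest p of the role, with 261.9, 345.8 and 266.1 CPM in controls and 269.6 and 220.8 in DAF-TM libraries. The groups overlapped because DAF-TM library 1 was above controls 1 and 3, and the log2 fold change was -0.25 (edgeR SE 0.17 and adjusted p = 0.945). Noc4l, a processome factor on chr5:110648419-110653382, varied most of all members over the libraries. Its controls were close together at 71.1, 69.3 and 73.9 CPM, while DAF-TM library 1 was above them at 80.7 and DAF-TM library 2 below them at 49.6. On the scale of log2(CPM + 0.5), the DAF-TM libraries were at 0.18 and -0.52 against the control mean. The fitted log2 fold change was -0.13 (edgeR adjusted p = 0.955), and it was -0.53 without DAF-TM library 1 and 0.18 without DAF-TM library 2.

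Large subunit factors held the lowest fold change of the list. Nip7, a factor of late nuclear maturation of that subunit (chr8:107056877-107060931), was at 151.6, 199.2 and 153.1 CPM in controls and at 126.8 and 140.2 in DAF-TM libraries. Both DAF-TM libraries were below all 3 controls, with means of 134 ± 9.49 (SD, n = 2) and 168 ± 27.1 (SD, n = 3). The log2 fold change was -0.33 (SE 0.17, unadjusted p = 0.0475, adjusted p = 0.86, edgeR), so it did not pass. Nop16, another nucleolar factor of the large subunit, had even controls of 79.9, 81.0 and 80.1 CPM and DAF-TM values of 77.0 and 70.7, all lower, at a log2 fold change of -0.12.

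In total 3 members, these 2 and Phb2, had both DAF-TM libraries below every control, against 9.02% of all genes tested. Bop1, Pes1 and Wdr12 form the PeBoW complex, which is needed to process the rRNA of the large subunit. Their log2 fold changes were 0.08, -0.12 and -0.17, so the 3 subunits of this complex had values of both signs, each under its standard error or close to it. Ppan, a processing factor, had -0.12, and Gnl3 (nucleostemin), a nucleolar GTPase, had -0.03. Npm1, the abundant nucleolar chaperone nucleophosmin, was at 356 to 542 CPM in controls and at 395 and 403 in DAF-TM libraries (-0.13). Pa2g4, a growth-regulated protein that binds ribosomes and rRNA, was at 157 to 173 CPM in controls and at 169.5 and 156.2 in DAF-TM libraries (-0.02).

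Among the metabolic targets, ornithine decarboxylase (Odc1, chr12:17544808-17551502), the first enzyme of polyamine synthesis and a long-known MYC target, was at 183.5, 257.7 and 192.9 CPM in controls and at 193.9 and 159.0 in DAF-TM libraries. Control library 2 was the highest, DAF-TM library 1 lay among the controls and DAF-TM library 2 below them. The log2 fold change was -0.26 (edgeR SE 0.17 and adjusted p = 0.945). Srm, which makes spermidine, and Cad, the enzyme that starts pyrimidine synthesis, both had 0.02, and in each case DAF-TM library 1 was the highest of the 5. Srm was at 72.1 and 52.4 CPM in DAF-TM libraries 1 and 2, outside its control range of 56.6 to 66.3 on either side. Cad was at 87.3 and 58.6 CPM, with controls from 57.9 to 82.7.

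Translation factors and the transport GTPase had negative values that did not pass. Eif4a1, the RNA helicase of the cap-binding complex (chr11:69666936-69672423), was at 272.3, 382.8 and 280.3 CPM in controls and at 273.0 and 261.2 in DAF-TM libraries. The control mean of 312 ± 61.6 (SD, n = 3) was raised by control library 2, and DAF-TM library 1 was above control library 1, so the groups overlapped (log2 fold change -0.22, edgeR SE 0.17 and adjusted p = 0.945). Eif5a, the translation factor modified with hypusine made from spermidine, was at 1006, 1006 and 944 CPM in controls and at 950.3 and 842 in DAF-TM libraries (-0.14). Ran, the GTPase that drives transport through nuclear pores, ranged from 598 to 773 CPM in controls and was at 607 and 639 in DAF-TM libraries (-0.14).

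Of the mitochondrial and nucleotide genes, Phb2, a prohibitin of the inner mitochondrial membrane (chr6:124712289-124716945), had the lowest p. It was at 184.6, 226.5 and 196.8 CPM in controls and at 174.7 and 178.3 in DAF-TM libraries, all below the controls (log2 fold change -0.20, edgeR SE 0.17 and adjusted p = 0.949). Its partner Phb, with which it forms a ring complex, had -0.04, with 23.9 to 27.7 CPM in controls and 25.6 and 24.4 in DAF-TM libraries. C1qbp, a mitochondrial matrix protein named as a binder of complement C1q, had -0.09. Nme1, a nucleoside diphosphate kinase, had -0.17 and shares exons with the readthrough gene Gm20390 on the same strand. Exons of 12 members overlap those of another gene, for 11 on the opposite strand (Mybbp1a, Wdr43 and Phb2 among them), and no source used here gives the strand setting of the counting.

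Levels between genes were compared per kilobase of the longest principal transcript, and the order depends on that choice. The length used was 8202 bases for Ncl, which came 12th of 35, and 10012 for Wdr12, which came 32nd. Other transcript lengths were not tried. Eif5a was the highest, at 661 CPM per kb averaged over the 5 libraries, followed by Ran at 272, Npm1 at 259 and Eif4a1 at 166. The libraries of Eif5a ran from 586 to 700.3 CPM per kb. Myc, at 23.2 CPM per kb, was 25th of 35, with 19.0 to 24.9 in controls and 28.7 and 22.9 in DAF-TM libraries. Tfap4 was the lowest, at 1.26 CPM per kb, below Polr1a at 5.58 and Utp20 at 5.72, which are long transcripts.

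On the TMM scale the 2 DAF-TM libraries stood apart from each other over most of the list. Their TMM factors were 0.98 and 1.11, and the higher factor lowers every CPM of DAF-TM library 2. The part of this scaling in the difference was not tested. DAF-TM library 1 was above DAF-TM library 2 for 31 of 35 members, against 47.9% of all genes. Against the mean of the 3 controls, on the log2(CPM + 0.5) scale, the members' median was 0.02 in DAF-TM library 1 and -0.18 in DAF-TM library 2, where 16 and 32 of 35 were below 0. DAF-TM library 1 was above all controls for 12 members (24.5% of all genes) and below all of them for 3 (23.2%). DAF-TM library 2 was above all controls for 1 member, Tfap4 (33.6%), and below all of them for 20 (27.3%). Leaving out DAF-TM library 1 gave a median log2 fold change of -0.19 over the members with 0 called (0.0717% of the genes tested in that fit), and leaving out DAF-TM library 2 gave 0.02 with 0 called (0.616%).

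A shift of this kind was shared by other well-expressed genes. All members but Tfap4 were among the 7443 genes with a mean of at least 20 CPM, a comparison set chosen after the values were seen. In that set 80.6% of genes were higher in DAF-TM library 1 than in library 2, and 57.4% were below all controls in DAF-TM library 2, against 30 and 20 of the 34 members. Their median against the control mean was -0.01 in DAF-TM library 1 and -0.17 in DAF-TM library 2, close to the members' values. Log2 fold changes were below 0 for 23 of all 35 members and 46.1% of all genes tested, but for 73.4% of the genes at that level. The median log2 fold change was -0.07 for the members, -0.09 for the genes at that level and 0.03 for all genes tested.

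**Figure D3:**
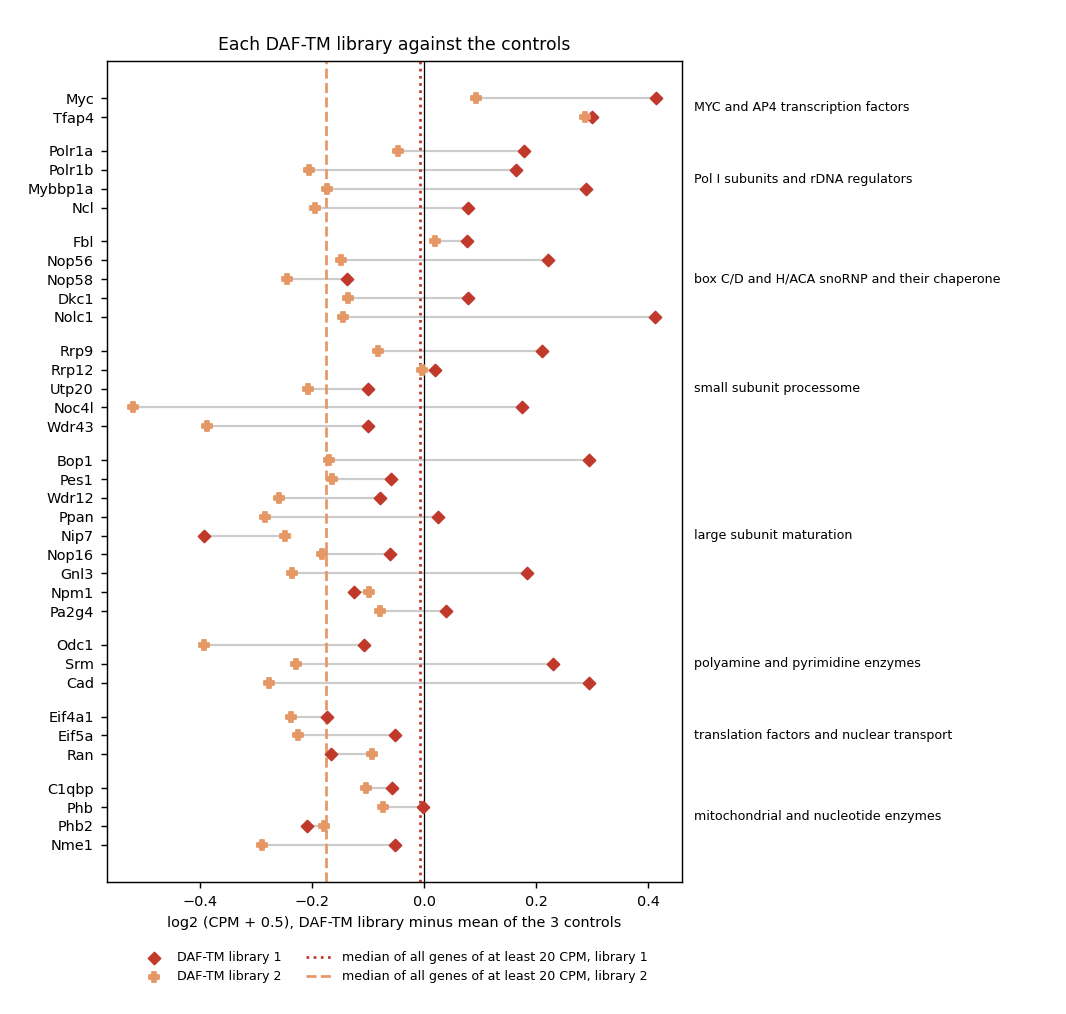
Difference of DAF-TM library 1 (diamonds) and DAF-TM library 2 (crosses) from the mean of the 3 controls for each member, on the log2(CPM + 0.5) scale, with the members grouped by role. The dotted and dashed lines are the medians of all genes of at least 20 CPM in libraries 1 and 2 (-0.01 and -0.17), and for 31 of 35 members the diamond lies right of the cross.

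The controls also differed among themselves. On the same TMM scale, control library 2 was the highest of the 5 libraries for 19 of 35 members. DAF-TM library 1 was the highest for 12 and DAF-TM library 2 for none, while DAF-TM library 2 was the lowest for 18. Control library 2 had the lowest TMM factor (0.92) and DAF-TM library 2 the highest (1.11). Across the 35 members, the excess of control library 2 over controls 1 and 3 went with a low GC content of the transcript (Spearman rho = -0.68, Pearson r = -0.67). Npm1, with 42.4% GC, was 0.49 higher there and Nop58, with 43.0%, was 0.39 higher, whereas Cad, with 57.4%, was 0.44 lower and Bop1, with 58.3%, was 0.29 lower, all on the log2 scale. The same description gave a Spearman rho of -0.32 over 16352 genes tested that have a GC value and -0.58 over 6994 of those with a mean of at least 20 CPM. The points share their libraries, so these are descriptions with no test. For the log2 fold change of the members the correlation with GC was 0.51 (Spearman) and 0.47 (Pearson), against 0.33 and 0.27 for the genes at that level, and the part of GC content in the fold changes was not tested.

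**Figure D4:**
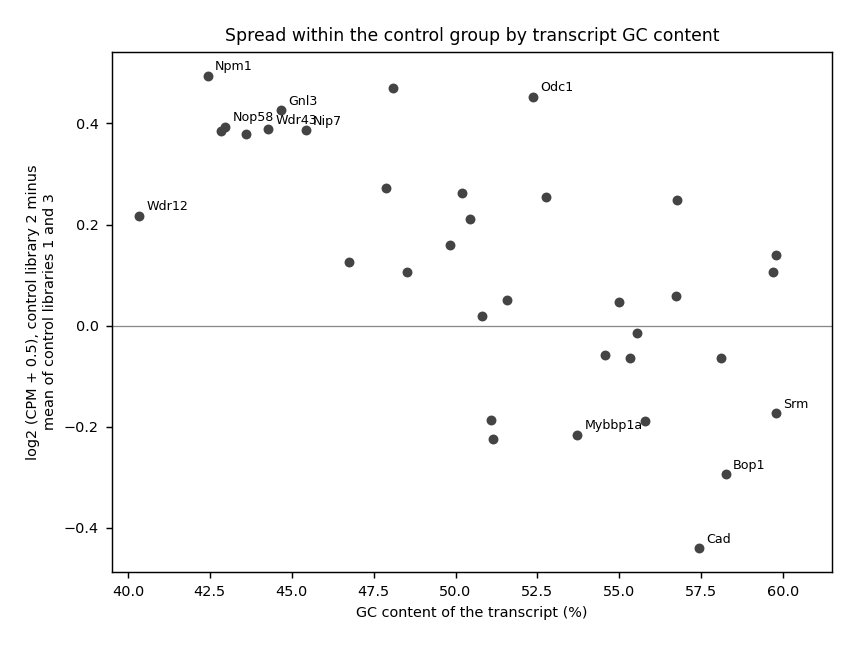
Difference of control library 2 from the mean of controls 1 and 3 on the log2(CPM + 0.5) scale (y axis) against transcript GC content in percent (x axis), with 1 point per member. Npm1 at 42.4% lies 0.49 above 0 and Cad at 57.4% lies 0.44 below it, with exceptions such as Odc1.

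The wider pathway was read from 10 lists with 182 entries, of which 179 genes were tested. None passed the adjusted threshold in edgeR's test, 131 (73.2%) had a log2 fold change below 0 and 48 above it, and the median was -0.08. That share is near the 73.4% of genes of at least 20 CPM, and above the 46.1% of all genes. An unadjusted p under 0.05 was found for 7 (3.91%), all lower in DAF-TM, against 5.74% of all genes in either direction and 2.06% lower. In the small subunit list of 42 genes 32 were negative (median -0.09), with the lowest p for Riok2, a kinase of late subunit maturation, at -0.43 (adjusted p = 0.716). In the large subunit list of 44 genes 27 were negative (median -0.05), with the lowest p for Sdad1 at -0.28 (adjusted p = 0.93). The 14 genes of the polymerase I machinery had a median of -0.02 (lowest p for Znrd1, a polymerase subunit, at -0.24), and 12 snoRNP core and assembly genes had -0.08 (Nhp2l1, which binds box C/D RNA, at -0.24).

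The smaller lists had medians between -0.18 and 0.00. The 12 tested genes of the RNA exosome, which trims rRNA ends, had the lowest, -0.18, with Exosc1 at 71.3, 85.5 and 66.6 CPM in controls and 58.5 and 61.1 in DAF-TM libraries (log2 fold change -0.32, edgeR adjusted p = 0.888). Polyamine and hypusine genes had -0.17 over 8 tested, with Sat1, which acetylates polyamines for export, at -0.38 (adjusted p = 0.785). Amd1 and Oaz1, enzymes or regulators of polyamine synthesis in every cell, were listed at 0 in all 5 and in 4 of 5 libraries and were not tested. Purine and pyrimidine synthesis had -0.10 over 14 (Adss at -0.35), and the Ran cycle -0.07 over 11, with the pore protein Ranbp2 at -0.41 (adjusted p = 0.692). Of the translation factors, median -0.14 over 10, Eif5a2, a paralog of the member Eif5a, had the lowest p. It was at 62.0, 104 and 71.1 CPM in controls and at 60.3 and 52.8 in DAF-TM libraries (log2 fold change -0.49, SE 0.17, adjusted p = 0.407).

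**Figure D5:**
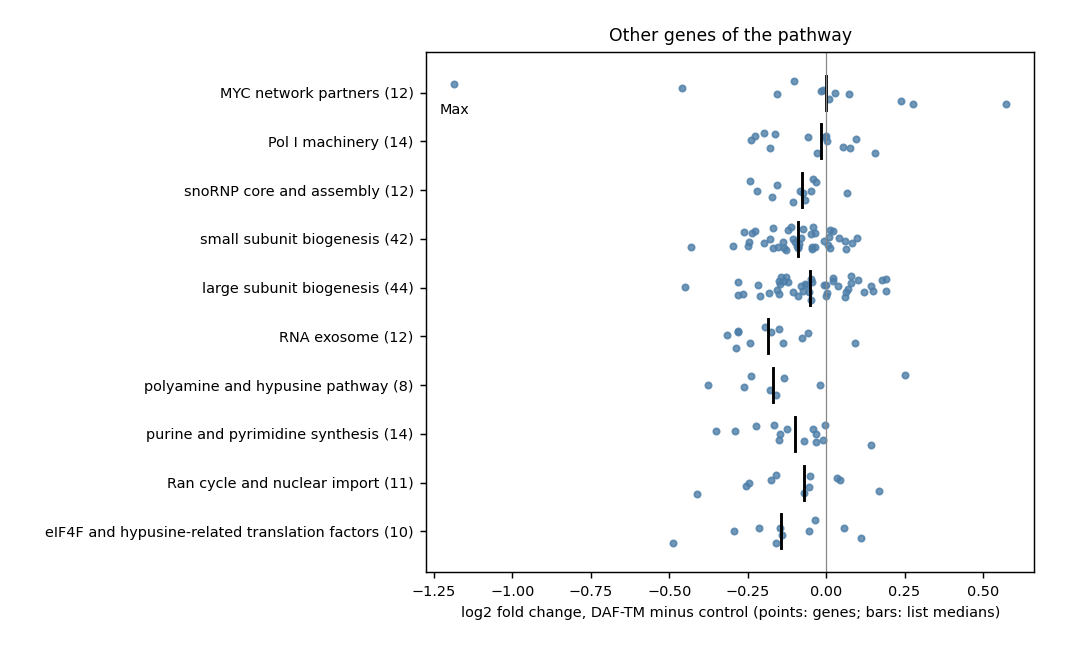
Log2 fold change (DAF-TM minus control) of each tested gene in the 10 pathway lists, with 1 point per gene, a bar at each list's median and the number tested in parentheses. List medians lie between -0.18 and 0.00, and the single point below -1 is Max.

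The partners and antagonists of MYC had a median of 0.00 over 12 genes, and the lowest p was that of Mxd3, an antagonist that competes for MAX in dividing cells. Mxd3 was at 59.7, 62.8 and 61.8 CPM in controls and at 45.3 and 44.1 in DAF-TM libraries. Both DAF-TM libraries were below the closely spaced controls (log2 fold change -0.46, edgeR SE 0.17 and adjusted p = 0.536). Mycn, a paralog of MYC, was at 1.10 to 3.81 CPM in controls and 1.98 and 3.64 in DAF-TM libraries. Mnt, Mga and Mlx, other dimer partners in the network, had -0.01, -0.16 and -0.10, and Mxd1 and Mxi1, both antagonists, had 0.28 and 0.24.

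Max, the obligate partner of MYC (chr12:76937269-76962323), is named because of its values, which had been seen. It was at 34.4, 72.1 and 53.5 CPM in controls and at 15.5 and 31.4 in DAF-TM libraries. The groups did not overlap, but control library 1 and DAF-TM library 2 were close, and the controls spanned a wider range than the distance between the means of 53.3 ± 18.8 (SD, n = 3) and 23.4 ± 11.2 (SD, n = 2). The log2 fold change was -1.19 with SE 0.43, a 95% interval of -2.24 to -0.13, an unadjusted p of 0.0337 and an adjusted p of 0.829 (edgeR). Its spread was so far from that of other genes that the robust fit gave it 5.68 degrees of freedom, against a median of 1156. The adjusted p was below 0.05 in 6 of 12 alternative analyses and above it in 6, from 1.24e-07 without control library 1 to 0.926 with upper-quartile factors, while the log2 fold change lay between -1.79 and -0.78.

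Markers of other cells moved with the groups or with 1 library. Of 9 natural killer cell markers 7 were called higher, and their sum was 31.4 to 48.2 CPM in controls and 126 and 73.7 in DAF-TM libraries 1 and 2. Of 10 macrophage markers 9 had a positive value (median 1.02) and 4 were called. Apoe alone was at 669.6 to 734 CPM in controls and 778 and 608 in DAF-TM libraries, and the other 9 summed to 39.2 to 45.9 CPM in controls and 100.6 and 68.8 in DAF-TM libraries. The sums without Lck and Apoe were chosen after the values were seen. Every marker tested had counts in all 5 libraries. Without DAF-TM library 1, the called markers of the 3 lists had positive log2 fold changes from 0.43 (Il2rb) to 1.70 (Vcam1). Each was smaller than in the main fit, except that of Cd3d (1.52 in the main fit and 1.63 without DAF-TM library 1). The fit without DAF-TM library 1 has 1 DAF-TM library, which has no spread of its own. Of 8 T cell markers 7 had a positive log2 fold change (median 1.08 over the 8) and 2 were called. Lck took most of their sum, at 249 to 285 CPM in controls and 213 and 224 in DAF-TM libraries, and the other 7 summed to 18.1 to 23.9 CPM in controls and 46.5 and 45.4 in DAF-TM libraries. Between the 2 DAF-TM libraries, library 1 had the higher sum of natural killer and macrophage markers and also the higher level of 31 of 35 members, and the part of these cells in the members' values was not tested. Mki67, which marks dividing cells, was at 773 to 961 CPM in controls and at 942 and 758 in DAF-TM libraries, so it had the same order of the 2 DAF-TM libraries as the members' sum. That order was shared by 80.6% of all genes with a mean of at least 20 CPM, so it does not set Mki67 apart.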

How the data were processed

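The members and all lists were chosen with earlier results of these data known. RNA from sorted germinal centre B cells (10 ng per sample) was reverse transcribed with oligo-dT (SMART-Seq v4 kit) and read as 100 nt single ends, per the labels' protocols. bcl2fastq, HISAT2 and featureCounts were used on build mm10 (GRCm38), per the submitters' processing notes. Versions, annotation and strand setting: not given in the sources used here. The deposited values were raw counts, 23412 rows by gene symbol, not normalized and without molecular identifiers. Totals were 9627306, 12783965 and 7257339 in controls and 11280400 and 10684753 in DAF-TM libraries.

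From the counts, CPM with TMM factors and edgeR 4.0.16 quasi-likelihood tests (R 4.3.3, limma 3.58.1, filterByExpr, robust fit, two-sided, Benjamini-Hochberg over 18767 genes) were computed with 3 control and 2 DAF-TM libraries, and the procedure was tested on simulated data. Intervals are the log2 fold change plus or minus the t quantile times SE. Per-library differences used log2(CPM + 0.5). Genes given in every library were Myc, Tfap4, the member of lowest p in each role and the 3 of widest spread, and Nop16 and Eif5a, chosen after their values were seen. From each pathway list the gene of lowest p was named. Exons, lengths and GC content came from the GRCm38 annotation (lengths and GC content from the longest principal transcript), and promoters from RefSeq tables. Alternatives were other scaling (RLE, upper quartile), another filter (none, or 1 CPM in at least 3 libraries), other tools (limma-voom, DESeq2 1.42.0), a replicate block, a pseudocount of 2 and leaving out each library.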

Additional observations from a re-analysis of the deposited data

How the results depend on the processing

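No member was called in any of the 12 alternative fits, where the smallest adjusted p among 420 recomputed member values was 0.518. Of those 420 values, 376 kept the sign and 44 did not. The count of all genes called was 77, and it was 39 with upper-quartile factors, 32 with DESeq2, 49 with limma-voom and 14 to 118 when a library was left out (14 without DAF-TM library 1, 118 without DAF-TM library 2, 43 without control library 1 and 44 without control library 3). The members' median of -0.07 ranged from -0.19 to 0.022 when a library was left out and was 0.01 with upper-quartile factors, where the median of all genes was 0.10. Of the pathway lists 1 gene, Max, was called with RLE factors, with no low-count filter and with the replicate block, and 0 to 1 when a library was left out. The cause of these differences was not tested.

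The largest value among the 44 that took the other sign was 0.2985 in size, that of Cad, and all were uncalled. With RLE factors Rrp12 was at -0.0186 and Srm at -0.0053, and with DESeq2 at -0.0182 and -0.0053. With upper-quartile factors Polr1b was at 0.0515, Ncl at 0.0054, Dkc1 at 0.0346, Gnl3 at 0.0384, Pa2g4 at 0.0528 and Phb at 0.0335. Leaving out 1 library in turn gave ranges across 0 for 19 members, namely Polr1a -0.0571 to 0.18, Polr1b -0.22 to 0.16, Mybbp1a -0.18 to 0.29, Ncl -0.22 to 0.069, Nop56 -0.17 to 0.21, Dkc1 -0.16 to 0.10, Nolc1 -0.17 to 0.40, Rrp9 -0.10 to 0.20, Rrp12 -0.0568 to 0.0686, Noc4l -0.53 to 0.18, Bop1 -0.18 to 0.29, Ppan -0.29 to 0.022, Gnl3 -0.26 to 0.17, Npm1 -0.24 to 0.0469, Pa2g4 -0.0873 to 0.0374, Srm -0.24 to 0.23, Cad -0.30 to 0.28, C1qbp -0.12 to 0.0022 and Phb -0.0864 to 0.0327. The other 16 kept their sign in those 5 fits, 13 negative and 3 positive (Myc, Tfap4 and Fbl).

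Shared replicate numbers were not taken as pairs, since no label gives a common litter or day. Same-numbered libraries deviated from their group means with correlations of -0.12 and -0.26 across genes. With 2 DAF-TM libraries these deviations are exact opposites, so the correlations cannot decide whether libraries were paired. The replicate block, which leaves 1 residual degree of freedom, called 61 genes and 0 members, with a member median of -0.12, and turned the signs of Polr1b (0.0092), Nop56 (-0.0719), Rrp9 (-0.015) and Phb (0.0155). Depth limited Tfap4 most, with 146 counts in all 5 libraries.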

Other observations

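Genes that mark position and fate in the germinal centre were read beside the growth genes. Ccnd2, a cyclin of light zone cells that re-enter the cycle and a gene regulated by MYC, was at 27.0, 25.9 and 28.6 CPM in controls and at 56.3 and 34.5 in DAF-TM libraries (log2 fold change 0.74, edgeR adjusted p = 0.0128). Without DAF-TM library 1 its value was 0.34 and the call was lost (adjusted p = 0.594). In the main fit Ccnd2 was the 1 called gene of the light zone list, where Cd86 had -0.52 (edgeR adjusted p = 0.261) and Cd83 -0.31. Of the 11 light zone markers 5 had a positive and 6 a negative log2 fold change (median -0.09). Among the 9 dark zone markers 2 were positive and 7 negative (median -0.22), and 0 were called. Prdm1, the regulator of plasma cell differentiation, was at 14.8, 18.5 and 18.4 CPM in controls and at 38.0 and 22.6 in DAF-TM libraries (log2 fold change 0.81, adjusted p = 0.0147), and without DAF-TM library 1 it had 0.38 and was not called (adjusted p = 0.595). Of the 7 plasma cell markers, 6 had a positive log2 fold change (median 0.33 over the 7). In DAF-TM library 1, 1 of them was below the control mean (median 0.76), and in DAF-TM library 2, 5 were (median -0.20). Mzb1, the most abundant, had a log2 fold change of -0.16. For Ccnd2 and Prdm1 DAF-TM library 1 was far above DAF-TM library 2. The natural killer cell markers had the same order, and their part in these values was not tested.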
